A study of Homo sapiens with 9 samples.

Results

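The transcripts of 10 BCL2 family apoptosis regulators, BBC3, PMAIP1, BCL2L11, BMF, BIK, BID, BAX, BAK1, BCL2L1 and MCL1, were followed across 9 RNA-seq libraries of MDA-MB-231 cells. MDA-MB-231 is a widely used cell line from a triple-negative breast cancer. The genes were picked by symbol from a count table and an FPKM table of 58735 named rows. Each symbol was found in 1 row, and all 10 genes were among the 15242 that passed the filter on low counts. The genotype label of 6 libraries is sgL1 and that of 3 libraries is sgCtrl. By the series title all of these cells, controls included, were kept under hypoxia for 6 h. The title speaks of a knockdown of UFMylation genes and the design text of a knockout of UFL1 or UFM1. The labels do not spell out either guide name, and they give no clone, culture or batch. Separate cultures are not named either, so a p-value measures only how these samples vary, and that variation may be technical.

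Proteins of the BCL2 family decide whether the outer mitochondrial membrane is opened and cytochrome c is released to start the caspases. The effectors BAX and BAK1 form the pores. Guardians such as MCL1 and BCL2L1 (BCL-XL) bind and restrain the effectors and their activators. The BH3-only proteins PMAIP1 (NOXA), BBC3 (PUMA), BID, BCL2L11 (BIM), BIK and BMF are induced or activated by stress and bind the guardians, and some of them also activate the effectors. Much of this balance is set on the proteins, by binding, cleavage and degradation, which transcript counts do not show.

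The BH3 motif is the short helix through which these proteins bind each other, and all 10 members share it, so its coding stretch is shown for each. Every line holds 12 codons from the GRCh38 genome, read on the coding strand along a GENCODE 29 transcript. The first capitals are the codon of the conserved leucine and the second capitals are the glycine or alanine codon followed by that of the conserved aspartate.
MCL1 (chr1:150578859-150578894, minus strand): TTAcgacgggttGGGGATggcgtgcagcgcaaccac
BCL2L1 (chr20:31721916-31721951, minus strand): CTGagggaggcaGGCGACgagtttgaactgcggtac
BAX (chr19:48955787-48955822, plus strand): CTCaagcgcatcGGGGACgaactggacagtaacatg
BAK1 (chr6:33575381-33575416, minus strand): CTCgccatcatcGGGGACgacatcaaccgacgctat
PMAIP1 (chr18:59902673-59902708, plus strand): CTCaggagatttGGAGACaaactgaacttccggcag
BBC3 (chr19:47226573-47226608, minus strand): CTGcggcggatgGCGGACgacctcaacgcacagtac
BID (chr22:17739409-17739444, minus strand): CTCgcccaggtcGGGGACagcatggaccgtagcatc
BCL2L11 (chr2:111150103-111150138, plus strand): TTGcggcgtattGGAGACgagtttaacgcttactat
BIK (chr22:43127716-43127751, plus strand): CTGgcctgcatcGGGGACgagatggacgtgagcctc
BMF (chr15:40104189-40104224, minus strand): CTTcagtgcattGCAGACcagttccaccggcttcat

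The stretch was found once in the transcript used for each member. The amino acid pattern behind the capitals was then looked for, at any position, in all annotated coding transcripts. It was present in 3 of 3 for MCL1, 8 of 9 for BCL2L1, 4 of 7 for BAX and 3 of 3 for BAK1. Among the BH3-only genes it was present in 1 of 2 for PMAIP1, 4 of 4 for BBC3 and 4 of 11 for BID. For BCL2L11, BIK and BMF it was present in 9 of 17, 1 of 1 and 4 of 9. The deposited counts are per gene, so the long and short forms of MCL1, BCL2L1 and BCL2L11, which are known to differ in how they act on apoptosis, were not separated.

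Library totals ran from 15420073 to 17038409 counts on named genes, and libraries of 1 group typically varied by 6.53% per gene (edgeR's common biological coefficient of variation). The line's markers VIM, CD44 and AXL stood at 1308, 649 and 1289 CPM in sgCtrl, where CPM is the count scaled to library size, here with TMM factors. Between sgL1 and sgCtrl, CD44 rose (log2 fold change 0.34, edgeR adjusted p = 2.71e-08) and AXL fell (-0.25, edgeR adjusted p = 3.12e-06). VIM had -0.09 (edgeR adjusted p = 0.0894). Of the markers listed as low or absent, ESR1 and CDH1 stood at 0.424 and 0.169 CPM and PGR, GATA3 and EPCAM at 1.14, 4.05 and 14.7 CPM. SPARC, listed as high in this line, was at 0.530 CPM, which goes against that list. Of the markers of other cell types, CD3E, COL1A2 and LUM had 0 counts in all 9 libraries, and PTPRC, PDGFRA, DCN and CDH5 were at or below 0.0849 CPM on average in each group. The monocyte marker CD14 stood at 1.57 CPM in sgCtrl and 1.72 CPM in sgL1. PECAM1, listed for endothelium, stood at 5.52 CPM in sgCtrl and 9.30 CPM in sgL1 (log2 fold change 0.75, edgeR adjusted p = 0.000273). Its part in the results was not tested. UFL1, which the design text names, averaged 26.0 CPM in sgCtrl, 13.7 CPM in sgL1 libraries 1-3 and 21.4 CPM in sgL1 libraries 4-6. All sgL1 libraries lay below all sgCtrl libraries (log2 fold change over all 6 sgL1 libraries -0.57, edgeR adjusted p = 0.126). Set against sgCtrl alone, UFL1 had -0.93 in libraries 1-3 (edgeR adjusted p = 1.24e-08) and -0.28 in libraries 4-6 (edgeR adjusted p = 0.0145). UFM1, the other gene that the design text names, averaged 49.7 CPM in sgCtrl and 55.9 CPM in sgL1, and the groups overlapped (0.17, edgeR adjusted p = 0.0862).

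Between sgL1 and sgCtrl the transcript of the guardian MCL1 rose 1.29-fold while that of the guardian BCL2L1 fell to 0.816 of its control level. The BH3-only transcripts PMAIP1, BBC3 and BID rose 1.21-fold, 1.42-fold and 1.15-fold. The effectors BAX and BAK1 and the BH3-only genes BCL2L11, BIK and BMF did not pass the test. In all, 4 of 10 members rose and 1 fell at an adjusted p under 0.05 (quasi-likelihood test of edgeR, adjusted by Benjamini-Hochberg over all genes tested), which is 50% of the members against 9.49% of the 15242 genes tested, of which 5.52% rose and 3.98% fell. The members' median log2 fold change was 0.18, and that of all genes tested was 0.002. In 4 of 10 members the sgL1 and the sgCtrl libraries did not overlap, against 14% of all genes tested. The members were chosen with earlier results of these data known, and the background was not matched for depth, so these shares are descriptive. In bulk RNA a change in the number of cells that hold a transcript and a change in its amount per cell cannot be told apart.

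**Figure D1:**
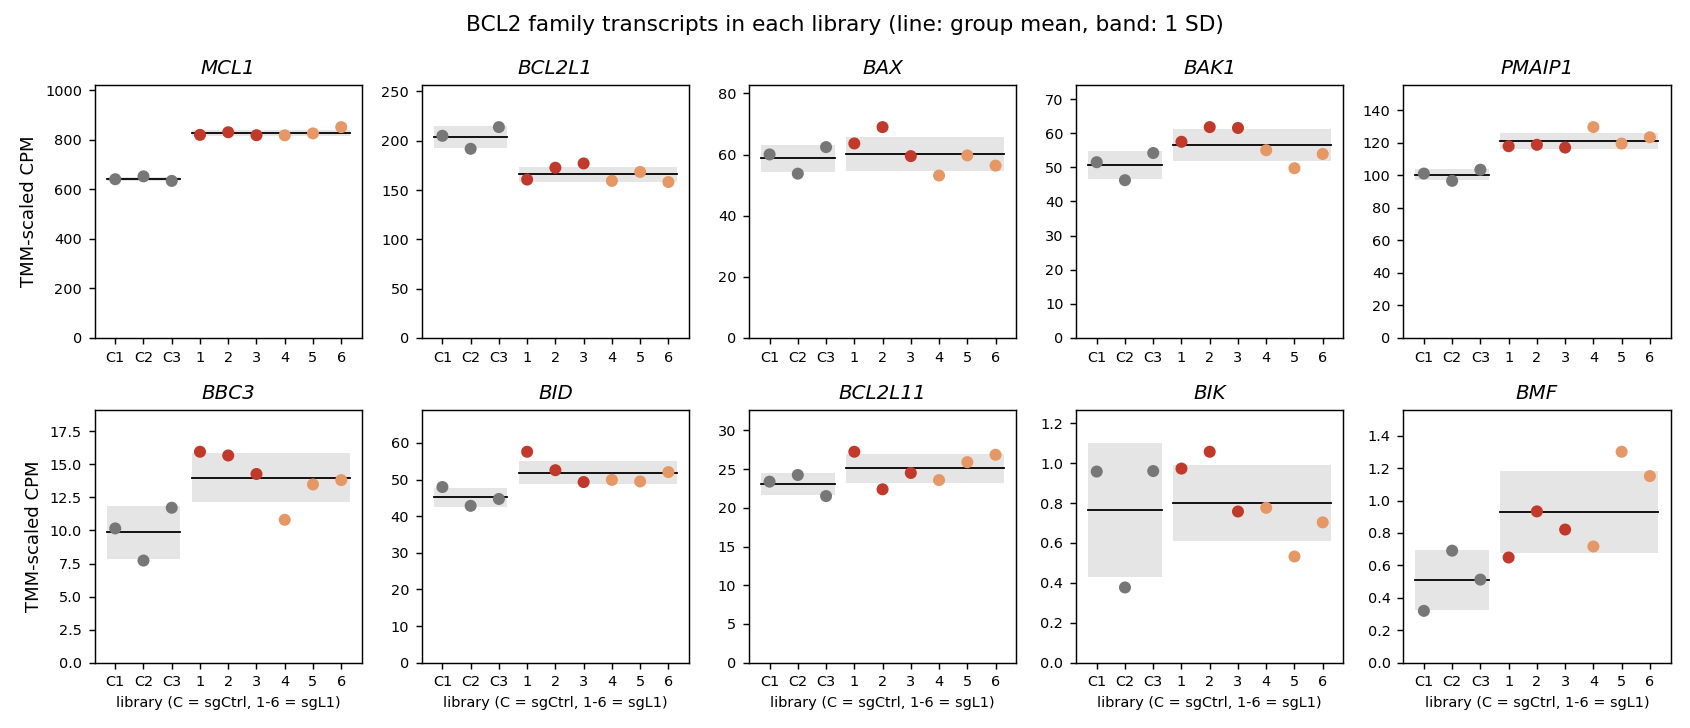
TMM-scaled CPM (vertical axes from 0) of the 10 members in each library (horizontal axes), with sgCtrl in grey, sgL1 libraries 1-3 in red and 4-6 in orange; black lines are group means and grey bands 1 SD. The 6 sgL1 libraries lie above all 3 sgCtrl libraries for MCL1 (818.0 to 851.1 CPM against 634.0 to 652.4 CPM), PMAIP1 and BID and below them for BCL2L1.

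MCL1, a short-lived guardian that binds BAK1 and several BH3-only proteins (GRCh38, chr1:150574551-150579738, minus strand), was the most abundant member and had the smallest adjusted p. It measured 640.8, 652.4 and 634.0 CPM in sgCtrl libraries 1, 2 and 3. In sgL1 the lowest value was 818.0 CPM, the median 822.7 CPM and the highest 851.1 CPM. All 6 sgL1 libraries stood above all 3 sgCtrl libraries, and the gap between the groups was wider than the range within either. The means were 642.4 ± 9.27 CPM (SD, n = 3) and 827.2 ± 12.7 CPM (SD, n = 6), which differ by 0.36 on the log2 scale (SE 0.03; adjusted p = 7.52e-09, edgeR). Behind these values stood 9900 to 13962 counts per library, a counting error of at most 1.01%.

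BCL2L1 encodes BCL-XL, a guardian that binds both effectors (chr20:31664452-31723989, minus strand). It measured 205.0, 191.8 and 213.8 CPM in sgCtrl libraries 1 to 3. In sgL1 it ran from 158.1 CPM over a median of 164.5 CPM to 177.0 CPM. The 6 sgL1 libraries were all lower than the lowest sgCtrl library, the opposite order to MCL1. The means were 203.5 ± 11.1 CPM (SD, n = 3) and 166.0 ± 7.82 CPM (SD, n = 6), which differ by -0.29 on the log2 scale (SE 0.05; adjusted p = 4.11e-05, edgeR). Of its exon bases, 1424 are shared with the antisense gene ABALON, which itself measured 5.96 CPM in sgCtrl and 5.24 CPM in sgL1 (log2 fold change -0.18, edgeR adjusted p = 0.545). The sources used here do not say whether counting used the strand, so reads of this pair cannot be told apart.

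PMAIP1 encodes NOXA, a BH3-only protein that binds MCL1 in particular and promotes its degradation (chr18:59899948-59904306, plus strand). Its values were 101.1, 96.7 and 103.5 CPM in the 3 sgCtrl libraries. The sgL1 libraries ran from 117.1 CPM over a median of 119.2 CPM to 129.7 CPM, all above sgCtrl. The means were 100.4 ± 3.47 CPM (SD, n = 3) and 121.1 ± 4.75 CPM (SD, n = 6), and the log2 fold change was 0.27, with an SE of 0.05 (adjusted p = 0.000179, edgeR). No annotated gene shares exon bases with PMAIP1. The calls of MCL1, BCL2L1 and PMAIP1 held in each of the 9 fits that omit 1 library and in every other alternative run.

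BBC3 encodes PUMA, a BH3-only protein that binds all the guardians (chr19:47220822-47232766, minus strand). It measured 10.2, 7.72 and 11.7 CPM in sgCtrl libraries 1 to 3, on 123 to 252 counts per library over both groups. In sgL1 the lowest value was 10.8 CPM, the median 14.0 CPM and the highest 16.0 CPM. The groups overlapped, since sgL1 4 lay below sgCtrl 3 while the other 5 sgL1 libraries were above all controls. The log2 fold change was 0.50 (SE 0.13, edgeR adjusted p = 0.0105), the largest among the 5 members called. Without sgCtrl 2, the lowest library, the log2 fold change was 0.35 and the edgeR adjusted p was 0.135.

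BID is the BH3-only protein that caspase-8 cleaves to carry the death receptor signal to mitochondria (chr22:17734138-17774770, minus strand). It measured 48.0, 42.8 and 44.7 CPM in sgCtrl. In sgL1 it ran from 49.3 CPM over a median of 51.0 CPM to 57.6 CPM, with no overlap between the groups. The rise was the smallest of those called, at 0.20 on the log2 scale with an SE of 0.06 (edgeR adjusted p = 0.0414). BID lost its call in 7 of the 9 fits that omit 1 library, namely each of the 3 sgCtrl libraries and sgL1 1, 2, 5 or 6, and over the 9 the edgeR adjusted p ran from 0.0261 to 0.254, highest without sgCtrl 2.

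The effectors lay close to each other and neither passed the test. BAK1, which sits in the mitochondrial outer membrane, measured 50.6 ± 4.05 CPM (SD, n = 3) in sgCtrl and 56.6 ± 4.66 CPM (SD, n = 6) in sgL1 (log2 fold change 0.16, SE 0.07, edgeR adjusted p = 0.154). BAX, which moves there from the cytosol, measured 58.7 ± 4.49 CPM and 60.2 ± 5.55 CPM (log2 fold change 0.04, SE 0.07, edgeR adjusted p = 0.831). In both genes the sgL1 and sgCtrl libraries overlapped.

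Among the remaining BH3-only genes, BCL2L11, whose protein BIM activates the effectors directly, measured 23.0 ± 1.39 CPM (SD, n = 3) in sgCtrl and 25.1 ± 1.91 CPM (SD, n = 6) in sgL1 (log2 fold change 0.12, SE 0.08, edgeR adjusted p = 0.420). It shares 727 exon bases with the long noncoding MIR4435-2HG on the other strand, which went from 57.4 to 50.3 CPM (log2 fold change -0.19, edgeR adjusted p = 0.0546), so the reads of these too cannot be told apart. Other overlaps were with genes of few or no counts: BMF shares 461 exon bases with BMF-AS1 and BBC3 80 and 76 with MIR3190 and MIR3191, all at 0 counts, and BAK1 shares 91 with GGNBP1, at 0 to 5 counts. With the use of strand unknown, these low counts do not show how reads on the shared bases were assigned. BMF, a BH3-only protein held at the cytoskeleton, had 5 to 22 counts per library and a log2 fold change of 0.86 with an SE of 0.39 (edgeR adjusted p = 0.185). BIK, which acts at the endoplasmic reticulum, had 6 to 17 counts and a log2 fold change of 0.06 with an SE of 0.37 (edgeR adjusted p = 0.956). At these counts the counting error alone ran from 21.3% to 44.7% for BMF and from 24.3% to 40.8% for BIK, and the log2 change of MCL1, 0.36, is smaller than 1 SE of either gene, so a change of that size was not detectable at this depth.

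**Figure D2:**
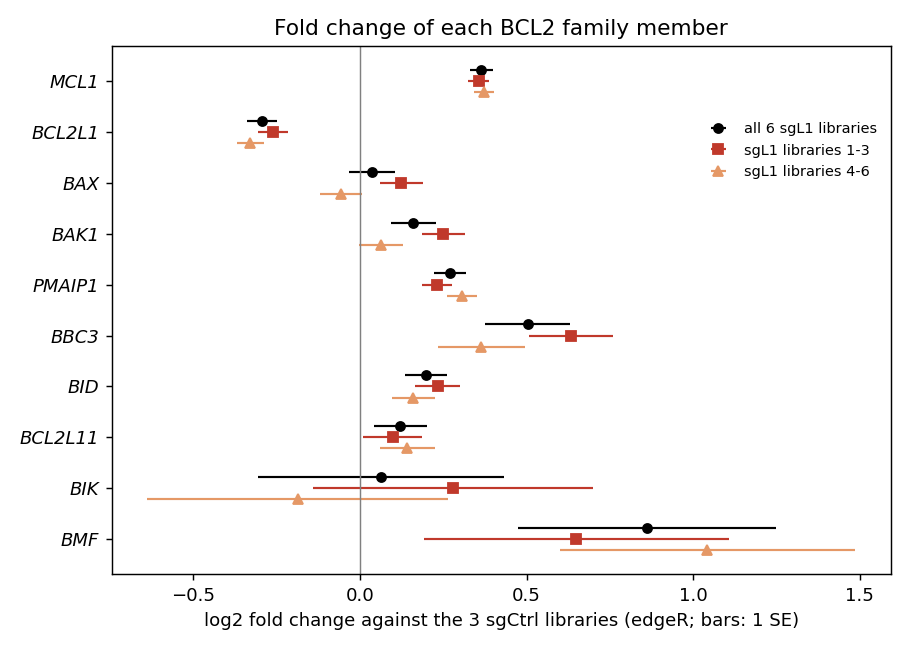
Log2 fold change of each member against the 3 sgCtrl libraries (horizontal axis, edgeR) for all 6 sgL1 libraries (black circles), libraries 1-3 (red squares) and libraries 4-6 (orange triangles), with bars of 1 SE. MCL1 lies at 0.36, 0.36 and 0.37 and BCL2L1 at -0.29, -0.26 and -0.33 in the 3 fits, which share the sgCtrl libraries, while the bars of BIK and BMF are the widest.

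The sgL1 libraries all carry 1 genotype label, but libraries 1-3 and 4-6 differ in UFL1 (log2 difference -0.65, edgeR adjusted p = 0.000406), so the members were also read in each set. What separates the sets is not in the labels. The split was made with earlier results of these data known, so its values are descriptive. In the comparison of libraries 1-3 with 4-6, 0 of 10 members passed edgeR's test, against 4% of the 14837 genes tested, of which 2.14% were higher and 1.86% lower in libraries 1-3. At an unadjusted p under 0.05 edgeR gave 3 of 10 members, BAK1, BAX and BBC3, against 20.2% of all genes. DESeq2 called 0 of the 6 members to which it gave an adjusted p, against 9.97% of genes, and limma-voom called 0 of 10, against 4.39%. Without sgL1 1, edgeR called 1 member higher, BAK1 (log2 difference 0.22, edgeR adjusted p = 0.0450), and 4.06% of genes. The share of all genes called in either direction depended strongly on single libraries. It ran from 0.284% without sgL1 4 to 7.35% without sgL1 1, and was 0.0608% with limma on log2(FPKM + 1). Differences of single genes between the sets, here and below, come from the fit of all 6 libraries unless stated.

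BAK1 measured 60.3 ± 2.41 CPM (SD, n = 3) in libraries 1-3 and 52.9 ± 2.77 CPM (SD, n = 3) in libraries 4-6, the 3 libraries of the first set all being higher. The difference was 0.19 (SE 0.06, edgeR adjusted p = 0.0885). Set against sgCtrl, BAK1 had a log2 fold change of 0.25 in libraries 1-3 (edgeR adjusted p = 0.00652) and of 0.06 in libraries 4-6 (edgeR adjusted p = 0.623). BBC3 had 0.63 in libraries 1-3 (edgeR adjusted p = 0.000648) and 0.36 in libraries 4-6 (edgeR adjusted p = 0.0622), and the difference between the sets was 0.27 (SE 0.11, edgeR adjusted p = 0.163). Neither member was thus shown to differ between the sets. PMAIP1 was lower in libraries 1-3 than in 4-6 without overlap, at 117.9 ± 0.856 and 124.2 ± 5.10 CPM, with a difference of -0.08 (SE 0.05, edgeR adjusted p = 0.372). Such a lack of overlap between the sets was seen in BAK1, BBC3 and PMAIP1 and in 24.4% of all genes tested.

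Levels of different genes were compared on the deposited FPKM, which divides counts by gene length and depth. In sgCtrl the order was MCL1 at 145.7 ± 1.88 FPKM (SD, n = 3), BCL2L1 at 60.9 ± 3.42, PMAIP1 at 44.5 ± 1.62, BAK1 at 22.7 ± 1.85, BAX at 22.5 ± 1.75 and BID at 10.1 ± 0.574 FPKM. BCL2L11 and BBC3 followed at 3.43 ± 0.20 and 3.08 ± 0.633 FPKM, then BIK at 0.796 ± 0.350 and BMF at 0.0924 ± 0.0338 FPKM. The neighbours BAK1 and BAX, and BCL2L11 and BBC3, differed by less than their spread. In sgL1 MCL1 reached 187.4 ± 2.94 FPKM (SD, n = 6), and PMAIP1, at 53.6 ± 2.14 FPKM, stood above BCL2L1, at 49.6 ± 2.31 FPKM. PMAIP1 exceeded BCL2L1 in 5 of 6 sgL1 libraries, sgL1 3 being the exception, and in 0 of 3 sgCtrl libraries. Of the 3314 exon bases of BCL2L1, 1424 are shared with ABALON, and how reads there were counted is not stated. The FPKM of BCL2L1 may thus be off as a level, and its order beside PMAIP1 is not secure. BBC3 exceeded BCL2L11 in 5 of 6 sgL1 libraries and in 1 of 3 sgCtrl libraries.

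**Figure D3:**
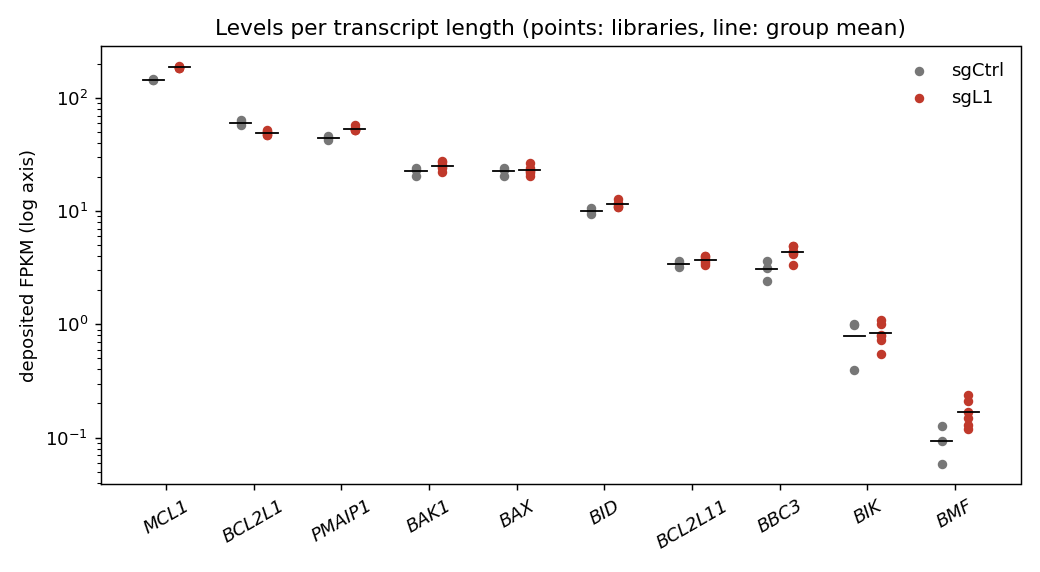
Deposited FPKM (vertical log axis) of the 10 members, ordered by their sgCtrl mean; each point is 1 library, sgCtrl in grey and sgL1 in red, and lines are group means. Levels run from MCL1 at 145.7 FPKM to BMF at 0.0924 FPKM in sgCtrl, and BCL2L1 and PMAIP1 change places in sgL1.

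Within single libraries the 2 guardians moved apart. The ratio of MCL1 to BCL2L1 in FPKM was 2.40 ± 0.167 (SD, n = 3) in sgCtrl, with a range of 2.25 to 2.58, and 3.79 ± 0.204 (SD, n = 6) in sgL1, with a range of 3.51 to 4.08. The lowest sgL1 library was above the highest sgCtrl library. This ratio combines the 2 calls given above and was not tested again. Its level in either group carries the limit given above for the FPKM of BCL2L1. The ratio of MCL1 to PMAIP1, the guardian and the BH3-only protein known to bind it, was 3.27 ± 0.162 in sgCtrl and 3.50 ± 0.135 in sgL1, and the groups overlapped. The overlap came from sgL1 4, at 3.23, while the other sgL1 libraries lay above the highest sgCtrl library, at 3.45. BAX to BAK1 was 0.992 ± 0.00616 in sgCtrl and 0.913 ± 0.0789 in sgL1, also with overlap.

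**Figure D4:**
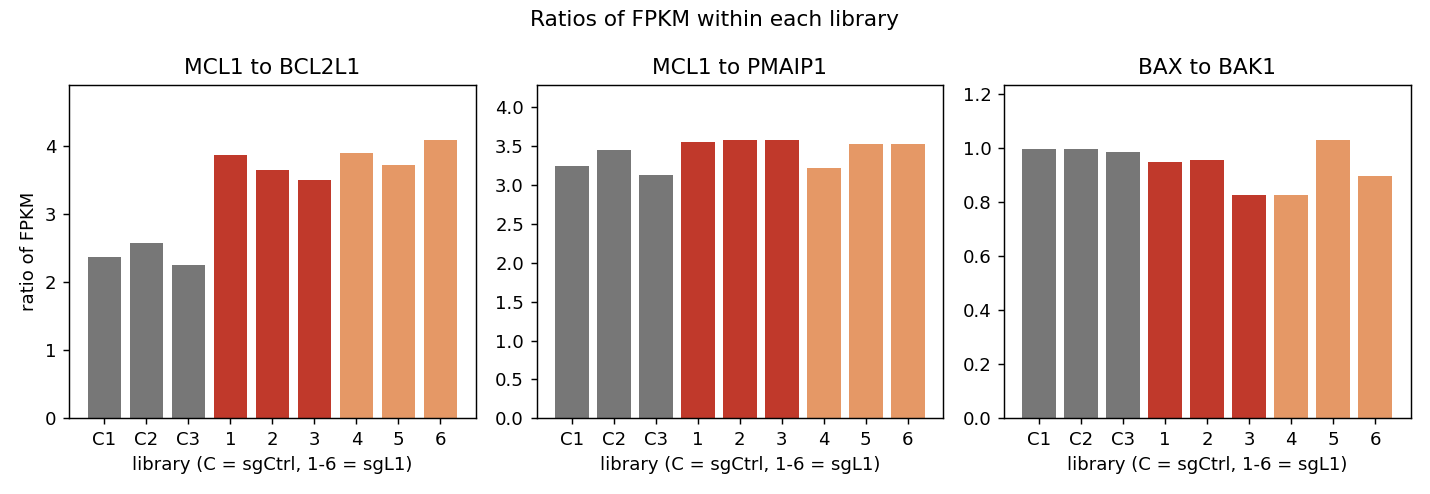
Ratio of FPKM within each library (vertical axes from 0) for MCL1 to BCL2L1, MCL1 to PMAIP1 and BAX to BAK1, with sgCtrl libraries in grey, sgL1 1-3 in red and 4-6 in orange. The ratio of MCL1 to BCL2L1 is 2.25 to 2.58 in sgCtrl and 3.51 to 4.08 in sgL1, while the groups overlap in the other ratios.

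Summed by role, the 2 guardians went from 206.6 ± 1.61 FPKM (SD, n = 3) to 237.0 ± 3.03 FPKM (SD, n = 6). The 6 BH3-only genes went from 62.0 ± 2.74 to 74.3 ± 1.78 FPKM, most of it PMAIP1, and the effectors from 45.2 ± 3.60 to 48.4 ± 3.70 FPKM. As shares of the members' summed FPKM, the guardians held 65.9% in both groups. The BH3-only genes held 19.8% and 20.7%, and the effectors 14.4% and 13.4%, in sgCtrl and sgL1.

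The 3 genes whose log2 CPM was most like that of MCL1 over the 9 libraries were WSB1 (Pearson r = 0.995), C3 (0.994) and CSF3 (0.994). Of 10688 genes compared, 322 had an r over 0.9. The 9 points fall into the 2 groups of the comparison, so r also carries the difference between the groups and is given as a description.

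Promoters are shown for PMAIP1 and BCL2L1, called members that moved in opposite directions. HIF, the hypoxia-inducible factor, binds a core written ACGTG or GCGTG, and PMAIP1 is known as a gene it can induce. The sequences, from RefSeq with build GRCh38.p14, reach from 250 bases before to 50 bases after the start site. Capitals mark matches to either core on either strand, overlapping matches being counted as 1.
PMAIP1 (chr18:59899746-59900045, plus strand): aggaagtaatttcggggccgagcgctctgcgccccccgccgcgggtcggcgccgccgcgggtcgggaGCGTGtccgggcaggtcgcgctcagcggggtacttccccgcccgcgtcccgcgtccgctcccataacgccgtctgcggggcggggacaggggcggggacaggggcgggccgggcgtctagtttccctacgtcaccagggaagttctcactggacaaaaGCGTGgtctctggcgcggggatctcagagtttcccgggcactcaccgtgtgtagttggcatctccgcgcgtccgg
BCL2L1, upstream start (chr20:31723914-31724213, minus strand): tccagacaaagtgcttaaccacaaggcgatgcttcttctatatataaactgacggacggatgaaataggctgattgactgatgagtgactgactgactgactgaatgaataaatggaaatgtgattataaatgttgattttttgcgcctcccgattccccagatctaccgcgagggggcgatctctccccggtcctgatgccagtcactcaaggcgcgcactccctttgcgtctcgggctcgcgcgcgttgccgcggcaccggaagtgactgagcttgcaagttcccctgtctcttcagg
BCL2L1, downstream start (chr20:31722819-31723118, minus strand): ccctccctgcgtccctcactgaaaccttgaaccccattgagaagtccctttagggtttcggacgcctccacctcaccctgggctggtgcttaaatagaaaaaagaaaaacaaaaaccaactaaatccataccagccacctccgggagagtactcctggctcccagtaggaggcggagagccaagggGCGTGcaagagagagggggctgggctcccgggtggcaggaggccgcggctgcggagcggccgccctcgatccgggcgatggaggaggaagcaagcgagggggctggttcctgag

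The PMAIP1 promoter held 2 matches, 183 and 25 bases before the start site. The upstream BCL2L1 start had 0 matches and the downstream start had 1, which lay 64 bases before it. Of all 35116 promoters of this length, 48.4% held at least 1 match, so a match is common. That share was not matched for GC content, which was 71.3% for PMAIP1 and 52.0% and 61.3% for BCL2L1, beside a median of 58.7%. The table matched 8 of the 10 members, without MCL1 and BIK, through 14 promoters, of which 10 held a match. Several of these are overlapping windows of BID that hold the same site, so the 14 are not independent. The promoter with the most matches was that of BAX, with 5, whose transcript was not called, and that of BAK1 had 0.

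Other genes of the family and its pathway were read from lists in the same fit. The lists too were written with earlier results of these data known, so their shares are descriptive. Over all 8 lists, 1 of which is not described here, and counting each gene once, 15 rose and 5 fell of 99 tested, or 20.2%, beside the 9.49% of all genes. Of 10 other BCL2 family genes tested, 3 rose and 0 fell (median log2 fold change 0.14). BCL2A1, a guardian known as a target of NF-kB, measured 8.50, 9.61 and 9.86 CPM in sgCtrl and from 11.6 to 16.3 CPM in sgL1. No sgL1 library of BCL2A1 overlapped sgCtrl, and the log2 fold change was 0.57, with an SE of 0.11 (adjusted p = 0.000720, edgeR). BNIP3L, a hypoxia-induced receptor for the removal of mitochondria, averaged 93.1 ± 2.41 CPM (SD, n = 3) in sgCtrl and 121.9 ± 5.53 CPM (SD, n = 6) in sgL1 (log2 fold change 0.39, edgeR adjusted p = 1.03e-06). Its relative BNIP3 went from 210.3 to 232.0 CPM (0.14, edgeR adjusted p = 0.0371). BNIP3 lost its call in 6 of the 9 fits that omit 1 library, those being each sgCtrl library and sgL1 1, 2 or 5 (edgeR adjusted p from 0.0598 to 0.240). The guardian BCL2 measured 36.9 ± 3.10 CPM in sgCtrl and 36.0 ± 1.83 CPM in sgL1 (-0.03, edgeR adjusted p = 0.842), and was named after its value was seen.

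**Figure D5:**
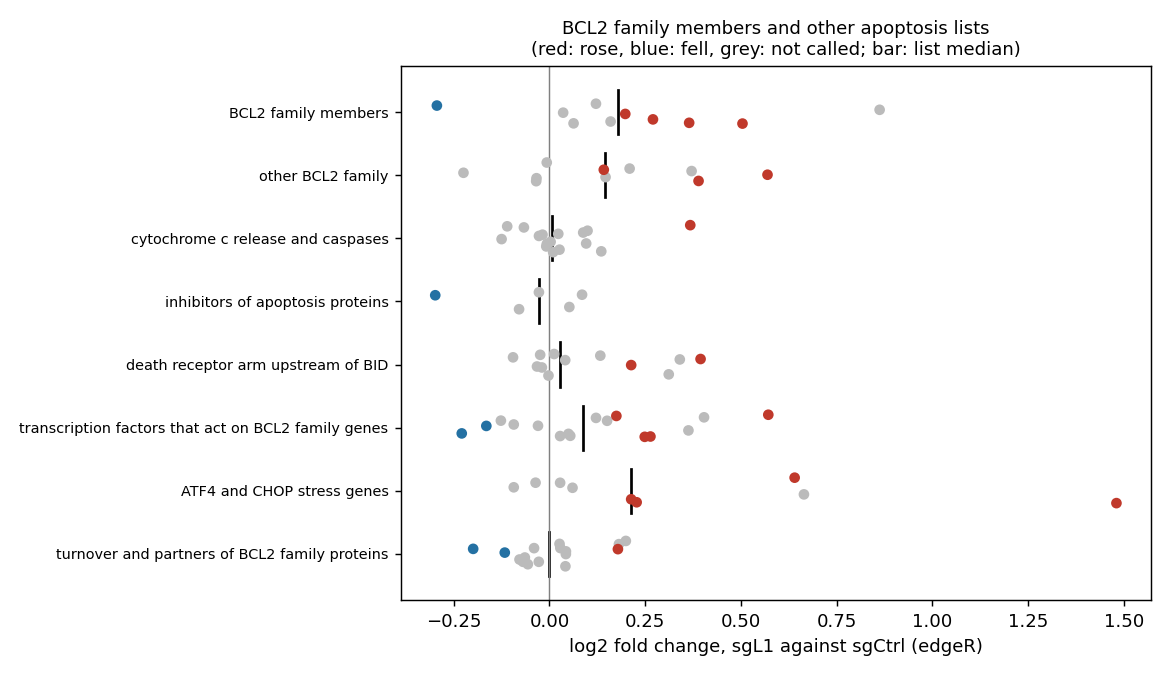
Log2 fold change of sgL1 against sgCtrl (horizontal axis, edgeR) for the 10 members and for the tested genes of 7 other lists, 1 point per gene, red for genes that rose, blue for genes that fell and grey for genes not called; black bars are list medians. The members' median is 0.18 and that of the ATF4 and CHOP genes 0.21, and the medians of the caspase and turnover lists lie within 0.01 of 0.

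Downstream of the family, 1 of 16 tested genes of cytochrome c release and the caspases rose and 0 fell (median 0.006). This was APAF1, the scaffold on which cytochrome c activates caspase-9, at 46.0 ± 4.13 CPM (SD, n = 3) in sgCtrl and 59.3 ± 3.21 CPM (SD, n = 6) in sgL1 (log2 fold change 0.37, edgeR adjusted p = 0.000141). Among 5 inhibitors of apoptosis proteins tested, BIRC3, a ubiquitin ligase in NF-kB signalling, fell to 135.6 ± 9.11 CPM from 166.8 ± 9.99 CPM (-0.30, edgeR adjusted p = 0.000190), and 0 rose. In the death receptor arm upstream of BID, 2 of 12 genes rose and 0 fell (median 0.03). They were the TRAIL receptor TNFRSF10B (0.21, edgeR adjusted p = 0.000897) and the decoy receptor TNFRSF10D (0.39, edgeR adjusted p = 4.71e-07).

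Of 16 transcription factors that act on these genes, 4 rose and 2 fell (median 0.09). JUN (0.25, edgeR adjusted p = 5.59e-05), ATF4 of the integrated stress response (0.26, edgeR adjusted p = 0.000111) and CEBPB (0.57, edgeR adjusted p = 0.000155) rose. CEBPB was the 1 gene of this list that differed between the sgL1 sets, being higher in libraries 1-3 than in 4-6 by 0.23 (edgeR adjusted p = 0.00548). EPAS1 and FOXO3, also called, were named after their values were seen. EPAS1, which encodes HIF-2 alpha, had 0.17 and FOXO3 -0.16 (edgeR adjusted p = 0.0406 and 0.0430). The EPAS1 call was lost without any 1 sgCtrl library or without sgL1 1, 3, 5 or 6 (edgeR adjusted p from 0.0532 to 0.262), and the FOXO3 call without any 1 sgCtrl library or without sgL1 1, 3 or 5 (from 0.0633 to 0.231).

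Of 9 tested ATF4 and CHOP stress genes, 4 rose and 0 fell (median 0.21), led by DDIT4, an inhibitor of mTORC1 signalling, which rose 2.79-fold (edgeR adjusted p = 7.37e-08). ERO1A, an oxidase of the endoplasmic reticulum, had 0.23 (edgeR adjusted p = 0.000179), TNFRSF10B is given above, and CHAC1, named after its value was seen, had 0.64. On this list 3 of 9 genes were higher in sgL1 libraries 1-3 than in 4-6, and 0 were lower, beside 2.14% and 1.86% of all genes tested. They were DDIT4, by 0.21 (edgeR adjusted p = 0.0126), CHAC1, by 0.43 (0.0482), and PPP1R15A, a phosphatase subunit named after its value was seen, by 0.17 (0.0493). Against sgCtrl, CHAC1 had 0.84 in libraries 1-3 (edgeR adjusted p = 3.4e-05) and 0.41 in libraries 4-6 (0.0533). DDIT3, which encodes CHOP itself and was also named after its value was seen, stood at 5.47 ± 0.586 CPM in sgCtrl and 5.13 ± 0.973 CPM in sgL1 (-0.09, edgeR adjusted p = 0.811).

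Of 16 genes for the turnover and partners of BCL2 family proteins, 1 rose and 2 fell (median -0.001). TPT1, a protein known to stabilise MCL1, rose by 0.18 (edgeR adjusted p = 0.00856), a call lost without sgCtrl 3 (0.0986). It had 0.10 in sgL1 libraries 1-3 (edgeR adjusted p = 0.0554) and 0.25 in libraries 4-6 (1.47e-07), and the difference between the sets, which did not overlap, was -0.15 (edgeR adjusted p = 0.0283). The stress kinase MAPK8 had -0.20 (edgeR adjusted p = 0.0107), lost without sgCtrl 1 (0.0592) or sgCtrl 2 (0.106). The 14-3-3 protein YWHAZ had -0.12 (edgeR adjusted p = 0.0358), lost without any 1 sgCtrl library or without sgL1 1 (from 0.0590 to 0.170). The ubiquitin ligases and deubiquitinases of MCL1 on this list, HUWE1, FBXW7, BTRC, USP9X and USP13, were not called and were named after their values were seen.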

How the data were processed

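Total RNA of 9 MDA-MB-231 libraries was sequenced, and each sample was grouped by its genotype label. The authors deposited whole-number counts per gene, not normalized, and FPKM values. Per the submitters' processing notes, fastp 0.20.1, STAR 2.7.7a, featureCounts 2.0.0 and GRCh38 were used. Their settings, the annotation release and the use of strand are not stated there. The deposited FPKM are the counts scaled by gene and by library (relative deviation at most 6.55e-15), and the lengths they imply for the members were 1.0021 times the GENCODE 29 exon lengths if scaled to all counts. Rows without a symbol, 627 with 0.358% to 0.410% of the counts, were left out. Of the other rows, 1741 share a name and are not named here; DIABLO, on the caspase list, is one of these. Counting errors cover counting only, since PCR reads are not independent molecules. Every pair of libraries in a group differed by more than sampling noise, for which a chi-square of about 1 per gene would stand (2.30 to 9.29 found).

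The test was edgeR 4.0.16 (R 4.3.3): filterByExpr, TMM scaling, robust quasi-likelihood F test over all 9 libraries, without covariates, calling an adjusted p (Benjamini-Hochberg, over all genes tested) under 0.05. In a single simulated data set per comparison, 7.86% of its calls were false for sgL1 against sgCtrl. For sgL1 libraries 1-3 against 4-6 it was 13.8%. Both lie above what that threshold allows, though a single draw measures this rate only roughly. SE came from the F statistic. sgL1 libraries 1-3 and 4-6 were compared in the same way. The alternatives tried were scaling by RLE, by upper quartile or by library size; DESeq2 1.42.0; limma 3.58.1 (voom with quality weights, and log2(FPKM + 1) or log2(FPKM + 0.1), which understate changes of low genes), other filters on low values, an adjusted p under 0.01, fits that omit 1 library, a block on the replicate number, and sgL1 libraries 1-3 or 4-6 alone. Gene coordinates are from GENCODE 29. The members, the lists and the split of the sgL1 libraries were chosen with earlier results of these data known. Named are the 10 members, every called gene of the other BCL2 family list, up to 3 called genes with the smallest adjusted p per other list, and the 3 genes of at least 5 CPM most like the member with the smallest adjusted p. Any other name is marked where it stands. A list of genes and some genes are not reported here. Lists are described by counts and medians, with no test of a list.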

Additional observations from a re-analysis of the deposited data

Results flagged for a closer look

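In the sgL1 group, MCL1 in sgL1 6 stood apart at 851 CPM, while the other 5 sgL1 libraries lay closer together and the sgL1 median was 822.7 CPM. Its gap to the nearest library, as a share of the group's whole range, was just above Dixon's 95% critical value for 6 samples. Chance flags about 1 in 20 groups, and the 10 members were looked at in this way. Without sgL1 6, the MCL1 call held.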

How the results depend on the processing

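Of the 10 members 4 rose and 1 fell in the main test. The BBC3 and BID calls were lost, leaving 2, with limma on log2(FPKM + 1), on log2(FPKM + 0.1) or at a mean FPKM of at least 1, with sgL1 libraries 4-6 alone, and at an adjusted p under 0.01. Of all genes tested 4.32%, 4.42%, 5.26%, 6.73% and 3.39% rose in these fits, beside 5.52% in the main test. Without an expression filter 3 members rose, BID being lost, and 2.7% of all genes. With single libraries left out, between 2 and 4 rose, the 2 without sgCtrl 2, and 1 fell each time. Of all genes tested 3.52% to 6.34% rose in these fits, 3.54% without sgCtrl 2, and 2.27% to 5.29% fell. Over all alternatives the adjusted p of BBC3 ran from 0.000331 to 0.135 and that of BID from 0.0168 to 0.254, and both kept their direction. BAX and BIK, not called, changed sign in some alternatives (log2 fold changes from -0.06 to 0.12 and from -0.26 to 0.31). BAK1 passed with sgL1 libraries 1-3 alone. In the comparison of sgL1 libraries 1-3 with 4-6, between 0 and 1 members were higher with single libraries left out, the 1 without sgL1 1, and 0 were lower. Of all genes 0.152% to 4.06% were higher in these fits, the most without sgL1 1, and 0.132% to 3.3% lower. In the other lists 15 genes rose and 5 fell. Between 12 and 18 rose with single libraries left out. The number that fell was 8 with limma-voom, 2 at an adjusted p under 0.01, and between 2 and 7 with single libraries left out (2 without sgCtrl 1 or 2, 3 without sgCtrl 3 or sgL1 1). Of all genes tested 5.88% fell with limma-voom and 2.22% at an adjusted p under 0.01, beside 3.98% in the main test. Without sgCtrl 1, 2 or 3 or sgL1 1, 2.57%, 2.27%, 2.47% and 3.41% of all genes fell, so the list counts moved with the overall share. A stricter threshold calls fewer genes by construction. For the other shifts the cause was not tested.

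The replicate numbers did not pair the libraries: the deviations of same-numbered sgL1 and sgCtrl libraries correlated at 0.0167, -0.20 and 0.0395. With the replicate number as a block, 5 members rose and 1 fell. BAK1 was the added one (log2 fold change 0.25, edgeR adjusted p = 0.0124). In this fit 12.2% of all genes were called, beside 9.49% in the main test, and in the other lists 16 rose and 5 fell. Numbers 4 to 6 occur only in sgL1, so those libraries add nothing to the fold changes of this fit. These rest on sgL1 1-3 against sgCtrl 1-3, and BAK1 also had 0.25 with sgL1 libraries 1-3 alone.

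Depth limits BMF and BIK, at 5 to 22 and 6 to 17 counts per library. The labels do not say what separates sgL1 libraries 1-3 from 4-6, and with 3 controls many calls near the threshold rest on single sgCtrl libraries.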
